A study of Mus musculus with 4 samples.

Results

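Antibody and B cell receptor genes were followed in the RNA of flow-sorted mouse splenic dendritic cells. The 9 genes were chosen by symbol: the immunoglobulin constant genes Igha, Ighm, Ighd and Igkc, the joining chain gene Jchain, the receptor subunit genes Cd79a and Cd79b, Ms4a1 and Pax5. All 9 were among the 17300 genes of the deposited table, and all 9 were among the 11864 that passed the filter on low values, a mean of at least 1 log2 unit over the lowest value of the table. Total RNA was sequenced in 2 libraries of KO genotype and 2 of WT genotype. The titles call the KO samples EKO, and the series title concerns Siglec-E, an inhibitory receptor for sialic acid. The columns of the KO libraries carry other numbers than the titles, so they are called KO A and KO B here, beside WT 1 and WT 2. The names of all 4 columns begin with Allo, which the labels do not explain, so a treatment or setting shared by both groups cannot be stated. Strain, age, sex and the surface gate of the sort were not given in the labels, nor was it said whether each library had its own mouse. The p-values therefore set the difference between genotypes only against the spread of these libraries within a genotype. How much of that spread is technical is not known, and KO A and KO B also differed in Y-linked RNA, as given below.

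B cells carry an antibody in their membrane as the antigen receptor. In the receptor, the membrane form of the heavy chain (first IgM and IgD, made from 1 primary transcript by alternative splicing) pairs with a light chain and signals through CD79A and CD79B. After activation B cells can switch the heavy chain from IgM to IgG, IgE or IgA. Some become plasma cells, which make very large amounts of antibody mRNA in its secreted form and lose PAX5 and the surface genes it maintains. Dendritic cells do not secrete antibody, although partial heavy chain rearrangements are known from plasmacytoid dendritic cells.

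Values are given as normalized read counts, obtained by undoing the variance-stabilizing log2 transform of the deposited table, or as the deposited log2 values themselves. Normalized counts summed to between 29002408 and 30952251 per library. The gene of Siglec-E, Siglece, was at 101 and 111 counts in KO against 859 and 666 in WT. Conventional dendritic cell markers were present in every library, with Itgax at 12150 and 14030 counts in KO and 23200 and 20860 in WT. KO A stood apart in Y-linked RNA, with Ddx3y at 64.5 counts against 3102 to 3979 in the other libraries. It also held more RNA of plasmacytoid dendritic cell markers, whose 13 genes summed to 69251 counts in KO A, 41390 in KO B and 39088 and 48446 in the WT libraries.

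The sequences that identify the main antibody genes are shown first, because reads of an antibody class can be counted only where its sequence differs from those of related genes. They are the first 60 coding bases of the first constant exon, from GENCODE M21 on GRCm38, written 5′ to 3′. On the minus strand lie Igha at chr12:113260177-113260236, Ighm at chr12:113422671-113422730, and the IgG genes Ighg2b at chr12:113307874-113307933 and Ighg2c at chr12:113288873-113288932. The kappa gene Igkc lies on the plus strand at chr6:70726435-70726494. Capitals mark the 5 bases at which Ighg2b and Ighg2c differ in this stretch.
Igha: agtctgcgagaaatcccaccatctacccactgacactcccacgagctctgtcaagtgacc
Ighm: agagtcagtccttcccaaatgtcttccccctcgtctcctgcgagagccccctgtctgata
Igkc: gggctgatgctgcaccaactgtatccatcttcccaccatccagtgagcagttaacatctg
Ighg2b: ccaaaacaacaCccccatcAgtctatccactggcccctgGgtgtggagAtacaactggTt
Ighg2c: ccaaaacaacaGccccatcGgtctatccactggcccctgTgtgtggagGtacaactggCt

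No word of 31 bases in the annotated transcripts of Igha, Ighm, Ighd, Igkc or Jchain recurred in another of the 11 constant genes in the table or in Jchain. Ighg2c shared 15% of its words with the other constant genes, mostly with Ighg2b, and Iglc3 shared 25.1% with Iglc2. Values of the IgG and lambda genes are therefore uncertain to the extent that the authors' counting split such reads. The table has 1 value per gene, so secreted and membrane forms of Ighm, Igha or Ighd were not separated.

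The members used for antibody secretion rose in the KO libraries, and the B cell surface genes did not pass the test. Of the 9 members 4 passed the threshold of an adjusted p of 0.05, all higher in KO (Igha, Jchain, Ighm and Igkc), and 5 did not pass (Ighd, Cd79a, Cd79b, Ms4a1 and Pax5). Over all 11864 genes tested in limma with Benjamini-Hochberg adjustment, 822 passed (6.93%), 557 higher (4.69%) and 265 lower (2.23%). With quantile normalization the split over all genes was 366 higher and 282 lower. In the 4 that passed, both KO libraries lay above both WT libraries, which was so for 28.1% of all genes tested, with KO lower in 28.2% and either order in 56.2%. Bulk RNA does not tell fewer cells of a type from less RNA per cell. Leaving out KO A or KO B removed the calls of all members, and nearly all calls over the whole table as well, so this loss was not particular to the members. Their differences without KO A and without KO B were 2.66 and 1.79 for Igha, and 1.325 and 0.728 for Jchain. For Igkc they were 1.16 and 0.90, and for Ighm 0.417 and 0.329. Without WT 1 or WT 2 the call of Ighm alone was lost (adjusted p = 0.149 and 0.123 in limma).

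**Figure D1:**
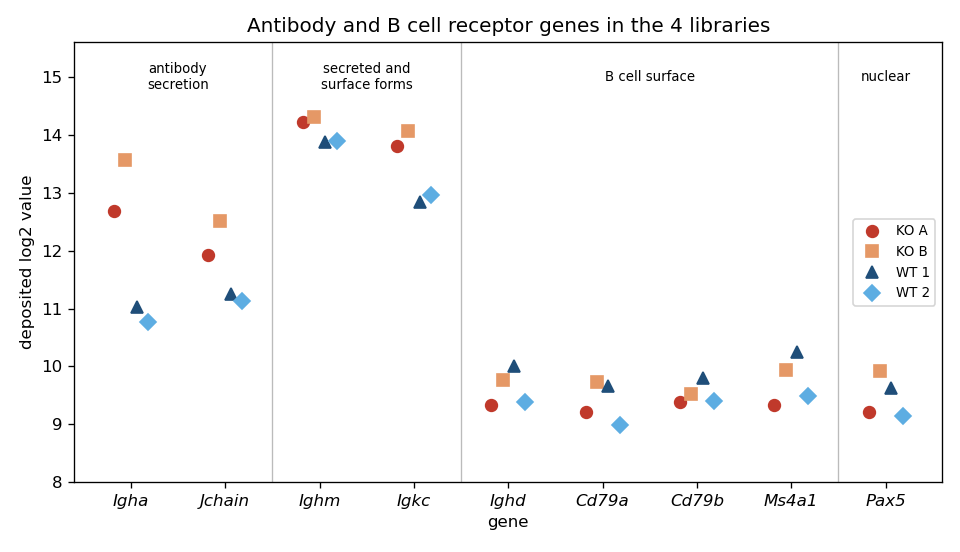
Deposited log2 values (y axis) of the 9 genes (x axis), grouped by role, with 1 point per library. Both KO libraries lie above both WT libraries for Igha, Jchain, Ighm and Igkc, while KO and WT points interleave for Ighd, Cd79a, Cd79b, Ms4a1 and Pax5.

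Igha encodes the constant region of the IgA heavy chain, the antibody of mucosal plasma cells. KO A had 6095 normalized counts and KO B had 11560, while WT 1 had 1586 and WT 2 had 1264. On the deposited log2 scale the KO mean was 13.12 ± 0.615 (SD, n = 2) and the WT mean 10.90 ± 0.176 (SD, n = 2). The groups did not overlap, and the lower KO library was well above the higher WT library. Igha rose by 2.23 on the log2 scale (SE 0.262, adjusted p = 0.0151), which was 6.19-fold in mean counts.

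Jchain encodes the joining chain, which links IgA into dimers and IgM into pentamers before secretion. KO A had 3371 counts and KO B had 5353, while WT 1 had 1953 and WT 2 had 1744. The order of the libraries was the same as for Igha, with KO B highest and WT 2 lowest. Jchain rose by 1.03 (SE 0.187, adjusted p = 0.0323), or 2.36-fold in counts, so that the count of Jchain per count of Igha was 0.553 and 0.463 in the KO libraries and 1.23 and 1.38 in the WT libraries.

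Igkc, the constant region of the kappa light chain, belongs to most antibodies of mice in both their surface and their secreted form. KO A had 13800 counts and KO B had 16640, while WT 1 had 6835 and WT 2 had 7470. The WT libraries were close to each other, and both KO libraries held more than either of them. The rise was 1.03 (SE 0.110, adjusted p = 0.0147), 2.13-fold in counts.

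Ighm, the heavy chain of IgM, had 18580 counts in KO A and 19770 in KO B, while WT 1 had 14620 and WT 2 had 14740. The libraries of each group differed by less than the groups did. Its rise was small, 0.37 (SE 0.0802, adjusted p = 0.0465), 1.31-fold in counts. This call was just under the threshold and was lost with quantile normalization (adjusted p = 0.0739), without a low-value filter (0.0502) and without an intensity trend (0.0536).

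Ighd, the heavy chain of IgD on mature naive B cells, had 226 counts in KO A and 420 in KO B, while WT 1 had 567 and WT 2 had 244. WT 1 was the highest library and KO A the lowest, with the other 2 between them. The log2 difference was -0.15, with a 95% confidence interval from -0.69 to 0.40 (adjusted p = 0.739).

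Cd79a and Cd79b encode the signalling subunits of the B cell receptor. Cd79a was at 184 and 404 counts in KO A and KO B and at 372 and 118 in WT 1 and WT 2, and its log2 difference was 0.14 (interval -0.46 to 0.75, adjusted p = 0.773). Cd79b was at 246 and 303 counts in KO A and KO B and at 442 and 250 in WT 1 and WT 2, and its log2 difference was -0.14 (interval -0.49 to 0.20, adjusted p = 0.594). For both genes the WT libraries differed from each other by more than the genotype means did.

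Ms4a1, which encodes the B cell surface protein CD20, had 228.5 counts in KO A and 528 in KO B, while WT 1 had 742 and WT 2 had 287. Its log2 difference was -0.22 (interval -0.90 to 0.46, adjusted p = 0.681). Pax5, the transcription factor that holds B cell identity, had 187 counts in KO A and 514 in KO B, while WT 1 had 353 and WT 2 had 160, a log2 difference of 0.19 (interval -0.42 to 0.79, adjusted p = 0.699). The upper bounds of these 5 intervals lay between 0.20 and 0.79, below the lower bound for Igha of 1.60. The lower bounds of the other called genes were 0.58 for Jchain, 0.77 for Igkc and 0.18 for Ighm. Ighd, Cd79b and Ms4a1, with upper bounds of 0.40, 0.20 and 0.46, lay below Jchain and Igkc as well. Cd79a (0.75) lay below Igkc but overlapped Jchain, and Pax5 (0.79) overlapped both. The interval of Ighm overlapped all 5. The design does not show that the surface genes were equal in KO and WT.

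**Figure D2:**
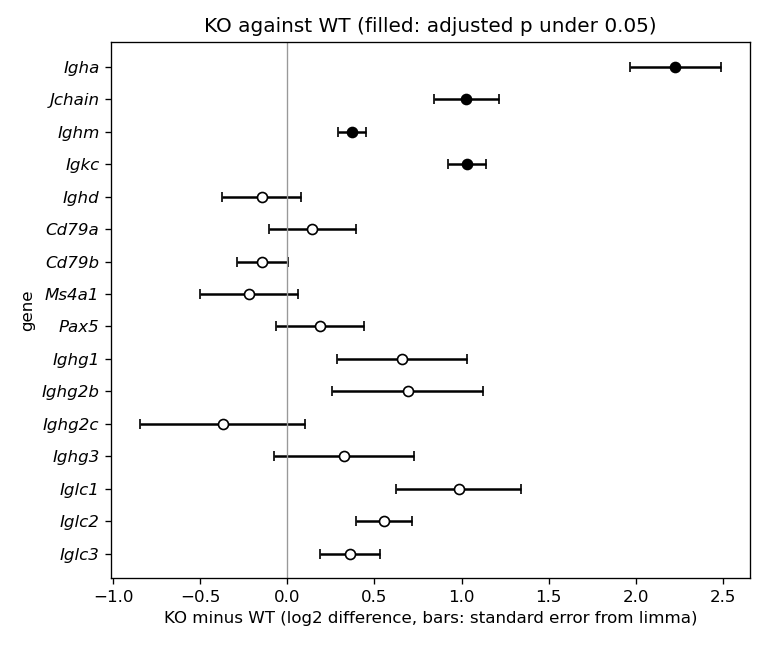
Log2 difference of KO minus WT (x axis) with its standard error from limma for the 9 genes and the 7 other constant genes in the table (y axis). Igha has the largest difference at 2.23, filled points passed an adjusted p of 0.05, and the surface genes and Pax5 lie between -0.22 and 0.19.

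The 4 surface genes and Pax5 had KO B and WT 1 as their high libraries, in more than 1 order. Ighd, Cd79b and Ms4a1 were highest in WT 1, then KO B, WT 2 and KO A, while Cd79a and Pax5 were highest in KO B, as Igha and Jchain were, then WT 1, KO A and WT 2. Each of these 5 was higher in KO B than in KO A, by 1.23 to 2.76-fold, and higher in WT 1 than in WT 2, by 1.77 to 3.16-fold. In the 4 genes that rose, KO B was also above KO A, by 1.06 to 1.90-fold, but the ratio of WT 1 to WT 2 was between 0.915 and 1.26. The Euclidean distance between the centred log2 values of Ighd and Ms4a1 over the 4 libraries was 0.175, and that between Cd79a and Pax5 was 0.190. Jchain was nearest to Igkc (0.296), and it lay nearer to Pax5 (0.880) and Cd79a (0.966) than to Igha (1.22). Ighm was nearest to Pax5 (0.591) and Cd79b (0.594). Igha stood apart from all other members, at 1.22 from Jchain and up to 2.48 from Ms4a1, so the secretion genes did not form a close group. The 4 surface genes and Pax5 did, lying at most 0.522 apart (Cd79b and Pax5). Each of them was farther from the 4 genes that rose, at 0.591 (Ighm and Pax5) or more. The values were centred but not scaled, so a distance also grows with a gene's range, which was 2.787 for Igha. These distances describe 4 libraries and carry no test.

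The contrast between the gene groups was taken library by library. Igha and Jchain together had 9466 counts in KO A and 16908 in KO B, while WT 1 had 3539 and WT 2 had 3008. Ighd, Cd79a, Cd79b and Ms4a1 together had 885 counts in KO A and 1655 in KO B, while WT 1 had 2123 and WT 2 had 899. KO A and WT 2 thus held nearly the same sum of surface gene counts, and differed in the secretion genes. The ratio of the sums was 10.7 and 10.2 in KO A and KO B, and 1.67 and 3.35 in WT 1 and WT 2.

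On the log2 scale, with each gene centred on its own mean so that gene length drops out, the secretion genes minus the surface genes gave 0.70 and 1.02 in KO A and KO B, and -1.07 and -0.65 in WT 1 and WT 2. The KO mean was 1.72 above the WT mean, and the SD within groups was 0.264 (n = 2 each). Without Igha, so with Jchain alone for secretion, the difference was 1.12. With 2 libraries against 2, an exact two-sided permutation test cannot go below p = 0.333, and no p is given for this score.

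**Figure D3:**
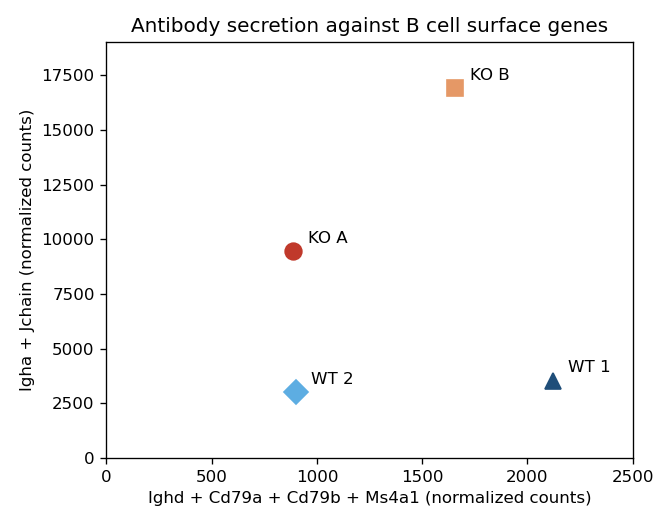
Summed normalized counts of Igha and Jchain (y axis) against those of Ighd, Cd79a, Cd79b and Ms4a1 (x axis), 1 point per library. Both KO libraries are at 9466 and above on the y axis and both WT libraries at 3539 and below, while on the x axis each genotype has 1 low and 1 high library.

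Levels were compared between members per length, as counts per 1000 bases of exon (GENCODE M21). On this scale Igkc was highest in every library, from 12850 in WT 1 to 31280 in KO B, followed by Ighm, from 7754 in WT 1 to 10480 in KO B. Igha ranged from 474 in WT 2 to 4331 in KO B and Jchain from 693 to 2127. In the WT libraries Jchain was above Igha, and in the KO libraries below it. Cd79a ranged from 80.9 to 277, Cd79b from 172 to 309, Ighd from 119 to 299, Ms4a1 from 36.9 to 120 and Pax5 from 18.0 to 58.1. Per length, Ighm and Igkc were thus far above the receptor subunit genes in all 4 libraries, WT included.

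The heavy chain constant genes were also described as shares of their summed counts. These shares were not corrected for gene length, so they compare libraries and do not give the makeup of the RNA by antibody class. In the annotation the constant genes follow each other on chromosome 12 in the order Ighm, Ighd, Ighg3, Ighg1, Ighg2b, Ighg2c, Ighe and Igha, and class switching removes those between. Ighm held 49.7% and 55.8% of heavy chain constant counts in KO A and KO B, and 68.0% and 63.0% in WT 1 and WT 2. The share of Igha was 16.3% and 32.6% in the KO libraries and 7.38% and 5.4% in the WT libraries. The share of Ighd was 0.603% and 1.18% in KO and 2.64% and 1.04% in WT.

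The 2 KO libraries differed from each other in the switched classes. The 4 IgG genes together were 33.4% and 10.4% of heavy chain counts in KO A and KO B, and 21.9% and 30.6% in WT 1 and WT 2. Their counts were 12513 and 3688 in KO A and KO B, and 4718 and 7164 in WT 1 and WT 2, so KO A had the most IgG RNA of the 4 libraries and KO B the least. Igha ran the other way, with 1.90 times as many counts in KO B as in KO A. Of the switched classes alone, Igha was 32.8% and 75.8% in KO A and KO B, and 25.2% and 15% in WT 1 and WT 2.

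**Figure D4:**
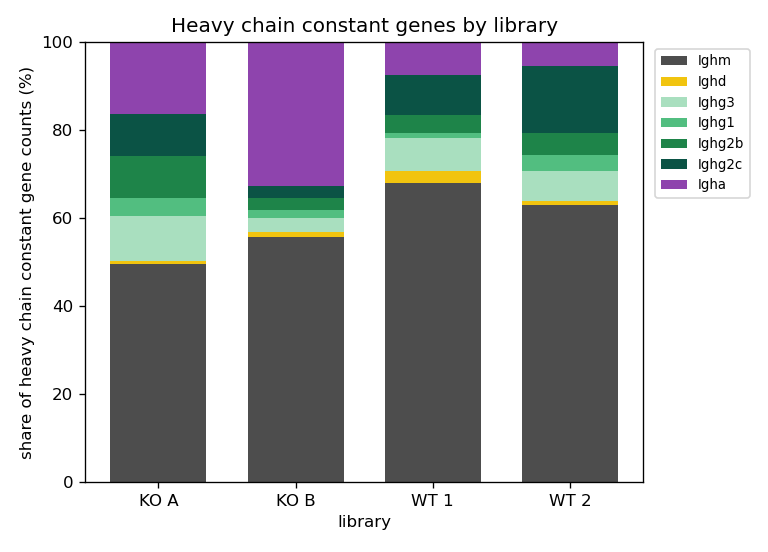
Share of each gene in the summed counts of the 7 heavy chain constant genes (y axis, percent) in each library (x axis). Igha takes 16.3% and 32.6% in KO A and KO B and at most 7.38% in WT, and the 4 IgG genes sum to 10.4% in KO B.

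Each IgG gene was higher in KO A than in KO B, by 2.48-fold for Ighg1, 3.73-fold for Ighg2b, 3.71-fold for Ighg2c and 3.37-fold for Ighg3. Ighg2c, a gene of the IgG2 class, had 3595 and 970 counts in KO A and KO B, and 1937 and 3581 in WT 1 and WT 2. Ighg2b had 3536 and 948 in KO A and KO B, and 893 and 1135 in WT 1 and WT 2. KO A and WT 2 were thus close to each other in Ighg2c and far apart in Ighg2b. None of the 4 IgG genes passed the threshold in limma (adjusted p from 0.332 to 0.681), beside 6.93% over all genes tested. An unadjusted p under 0.05 was found for 0 of them, and for 2928 of all 11864 genes tested.

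The lambda light chain genes were higher in KO by value, without passing the threshold. Iglc1 was at 1259 and 1162 counts in KO A and KO B and at 848 and 154 in WT 1 and WT 2 (adjusted p = 0.155). Iglc2 was at 355 and 464 in KO and at 256 and 109 in WT (adjusted p = 0.0957), and Iglc3 at 972 and 583 in KO and at 430.5 and 587 in WT (adjusted p = 0.259). WT 2 was the lowest library for Iglc1 and Iglc2, and without WT 1 both passed (adjusted p = 0.000608 and 0.0125 in limma). Kappa made up between 81.7% and 89.8% of light chain constant counts, with no order by genotype.

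Variable segments, which encode the antigen-binding ends of antibodies, were summed over all 116 in the table. KO A had 17868 counts and KO B had 19159, while WT 1 had 8721 and WT 2 had 9409. By chain, the 61 heavy segments summed to 7614 and 8384 in KO and 3699 and 4050 in WT, the 52 kappa segments to 7963 and 9185 in KO and 3595 and 3909 in WT, and the 3 lambda segments to 2291 and 1590 in KO and 1428 and 1450 in WT. KO means were above WT means for 108 of the 116, and for 8542 of all 17300 genes in the table. For 70 segments both KO libraries were above both WT libraries (60.3%), against 26.5% of all genes in the table. Variable and constant parts lie on the same mRNA, so these sums are not independent of the constant gene values.

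The low-value filter was passed by 31 segments, in part through their KO values alone, so their tests are not given and single segments are described by their counts. The segments named next were those with the smallest p-values in limma, so their separation of KO and WT follows from how they were chosen. Igkv6-23 was at 386 and 522 counts in KO and at 42.7 and 83.1 in WT, and Igkv1-117 at 608 and 554 in KO and at 202.5 and 206 in WT. Ighv4-1 was at 246 and 322 in KO and at 89.0 and 38.7 in WT.

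By these counts the leading segment differed from library to library. Words shared between variable segments were not examined. Values of single segments, here and above, therefore depend on how the authors' counting split any shared reads. Among heavy segments it was Ighv1-82 in KO A (6.93% of heavy segment counts), Ighv14-2 in KO B (12.3%), Ighv1-55 in WT 1 (9.30%) and Ighv1-5 in WT 2 (14.3%). Ighv14-2 had 1028 counts in KO B, while KO A had 165 and the WT libraries 74.6 and 88.6. The 5 leading heavy segments held 23.7% and 34.7% in KO A and KO B, and 32.2% and 41.6% in WT 1 and WT 2, so no single segment made up most of the heavy segment counts in any library.

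**Figure D5:**
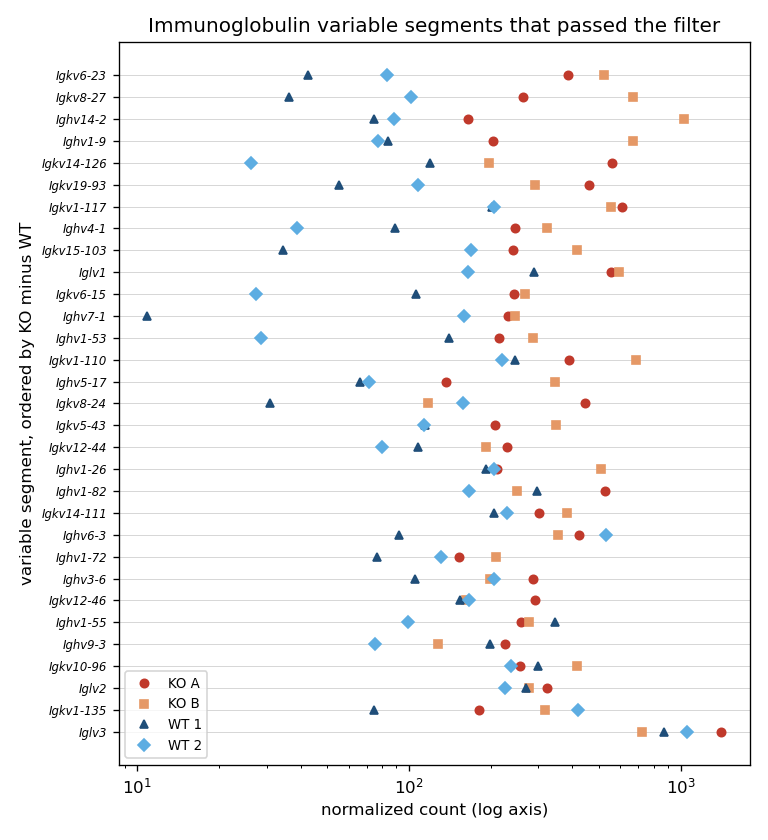
Normalized counts (log x axis) of the 31 variable segments that passed the low-value filter (y axis, ordered by KO minus WT) in each library. Some of them passed the filter through their KO values alone. For Igkv6-23 and Igkv1-117 both KO points lie right of both WT points, while for Iglv3 and Igkv1-135 the points interleave.

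Genes of the plasma cell programme outside the antibody loci were called about as often as genes in general. Of the 14 that could be tested, 13 missed the threshold, 1 rose and 0 fell, beside 6.93% called over all genes tested. Their median difference was 0.07, against -0.002 over all genes tested. Tent5c, a poly(A) polymerase that stabilizes antibody mRNA, was at 2264 and 2376 counts in KO and at 955 and 1256 in WT, and rose by 0.84 (SE 0.114, adjusted p = 0.0199). The next 3 genes were named with their values known. Mzb1, a chaperone of antibody assembly, was at 529.5 and 298 counts in KO and 281 and 302 in WT (adjusted p = 0.385), and Sdc1, the plasma cell surface marker CD138, at 184 and 144 in KO and 168 and 131 in WT (adjusted p = 0.793). Prdm1, the transcription factor of plasma cell differentiation, was at 567 and 629 in KO and 429.5 and 321 in WT (adjusted p = 0.0894). Several genes of this list, such as Xbp1 and Irf4, are also used by dendritic cells.

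Among 21 B cell identity genes, 17 missed the threshold, while 2 rose and 2 fell, beside 4.69% higher and 2.23% lower over all genes tested. Their median was 0.01. Ikzf3, a zinc finger factor of lymphocytes, rose by 0.73 (SE 0.117, adjusted p = 0.0253) and Pou2f2, an octamer-binding factor, by 0.39 (SE 0.0796, adjusted p = 0.0418). H2-Ob, a subunit of the protein that restrains H2-M, fell by 0.42 (adjusted p = 0.0466). The B cell receptor inhibitor Cd72 fell by 0.40 (adjusted p = 0.0451).

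Among 28 genes that carry the B cell receptor signal, 24 missed the threshold, while 1 rose and 3 fell, beside the same 4.69% and 2.23% over all genes tested. Their median was -0.01. Siglecg, an inhibitory receptor of B cells, fell by 0.80 (SE 0.124, adjusted p = 0.0241), Rasgrp3, a Ras activator, fell by 0.66 (SE 0.111, adjusted p = 0.0271), and Dok3, an inhibitory adaptor, rose by 0.51 (SE 0.104, adjusted p = 0.0407). Most kinases and adaptors of this list, among them Lyn, Syk and Btk, are shared by myeloid cells. Of the promoters of Jchain, Cd79a and Pax5 in the RefSeq table (GRCm38.p6, 250 bases before to 50 after the start), 0 held the octamer ATGCAAAT on either strand, which 1.74% of 32851 promoters did, and 0 held the E box CAGCTG, which 16.3% did. The other 6 members had no entry matched.

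Markers of several other cell types also differed between KO and WT, though not all in the pattern of the antibody genes. Neutrophil markers were low in WT 2 alone, and plasmacytoid dendritic cell markers were highest in KO A. None of the markers in the table was at the lowest value in any library. Over all genes tested 4.69% rose and 2.23% fell. All 6 NK cell markers rose, with summed counts from 10553 to 12797 in KO and from 4366 to 4686 in WT. Of 6 macrophage markers 3 rose (5721 to 10406 in KO, 3074 to 4211 in WT). Of 5 red cell markers 2 rose (26672 to 38867 in KO, 1828 to 10716 in WT). T cell markers summed to 4522 to 4882 counts in KO and 2179 to 2752 in WT, and of 6 tested 2 passed, Lck and Cd28. Cd28 passed the low-value filter through its KO values alone (log2 values of 9.72 and 9.54 in KO, 8.93 and 9.01 in WT), so its call is no evidence of a rise. Conventional dendritic cell markers fell in 7 of 10 (174302 to 182611 in KO, 248616 to 250678 in WT). The 5 neutrophil markers did not pass (158050 to 172168 in KO, 52206 to 149903 in WT), and 1 of 13 plasmacytoid dendritic cell markers rose (41390 to 69251 in KO, 39088 to 48446 in WT). The part of these shifts in the antibody result was not tested.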

How the data were processed

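The authors deposited 1 table of log2 values for 4 libraries, with a variance-stabilizing transform and scaling between libraries already applied, as its name and its shared lowest value of 8.04 show. The submitters' processing notes list GRCm39, Salmon 1.10.1 and DESeq2 without saying what each did. The annotation is not given in the sources used here. Per the labels' protocols, a low-input stranded kit for total RNA was used. Symbols came from GENCODE M21 (17289 of 17300 identifiers matched). This older build was used for names, gene order, exon lengths and sequences only.

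Normalized counts q were computed from each value v and the lowest value m as the square of (2 to the power v minus 2 to the power m), divided by 2 to the power v. Since they come after scaling, sequencing depth per library is unknown. Genes whose mean exceeded the lowest value by 1 log2 unit or more were compared in limma 3.58.1 under R 4.3.3 (trend, two-sided, 6.48 total degrees of freedom, Benjamini-Hochberg, threshold 0.05), after the test had been run on simulated data. Named were all 9 members, all other constant genes, up to 4 called genes per list, and the 5 tested genes outside the members and variable segments nearest to Igha, Ms4a1 and Ighd by centred log2 values; other genes were named with their values known. Members and lists were chosen with earlier results of these data known. Alternatives were no filter, a filter of 2 units, quantile normalization, log2 of the count plus 1 or 10, no trend, and leaving out each library.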

Additional observations from a re-analysis of the deposited data

How the results depend on the processing

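No paired analysis was possible because the column numbers of KO differ from those in the KO titles. Over the settings other than leaving out a library, between 648 and 858 genes and 3 or 4 members passed, and the exception was Ighm, whose call was lost in 3 of them. The filter of 2 units left only the 4 called members to be tested, without Ighd, Cd79a, Cd79b, Ms4a1 and Pax5. Leaving out 1 library gave between 0 and 820 genes and between 0 and 3 members past the threshold, with 0 genes without KO A (2508 at an unadjusted p under 0.05) and 3 without KO B (2448). The group left with 1 library was then assumed to vary like the other. Igha stayed between 1.79 and 2.66, Jchain between 0.73 and 1.33, Igkc between 0.90 and 1.16 and Ighm between 0.33 and 0.42. Signs of genes that had not passed turned with single libraries: Ighd ran from -0.46 to 0.16, Cd79a from -0.20 to 0.48, Cd79b from -0.34 to 0.059, Ms4a1 from -0.60 to 0.16, Pax5 from -0.16 to 0.54, Ighg2b from -0.062 to 1.44, Ighg2c from -1.12 to 0.38 and Ighg3 from -0.38 to 1.03. Without WT 2, Ighg1 passed at 1.13 (adjusted p = 0.0426). The secretion minus surface contrast was 2.03 with log2 of the count plus 1, 1.12 without Igha and between 1.51 and 1.93 without 1 library. The cause of these shifts was not tested. Depth in reads is unknown.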

Other observations

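Genes with profiles nearest to Igha over the 4 libraries, by Euclidean distance of centred log2 values, were Ptgs2 (0.734), Egr1 (0.800), Ccl3 (0.829), Hdc (0.842) and Sptb (0.895). None of the 5 is an antibody gene: they encode an inducible cyclooxygenase, an early growth response factor, a chemokine, the histamine-forming enzyme and a red cell spectrin. Ptgs2 was at 1432 and 1796 counts in KO A and KO B and at 88.9 and 229 in WT 1 and WT 2, so its WT order was the reverse of that of Igha.

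Outside the variable segments and the 9 genes themselves, of which Ighd and Ms4a1 lay at 0.175 from each other, nearest to Ighd were Col4a1 (0.104), Fcer2a (0.152), Stag3 (0.176), Plcl1 (0.191) and Gm8369 (0.198), and nearest to Ms4a1 were Col4a1 (0.239), Gm8369 (0.268), Gm21985 (0.277), Stag3 (0.297) and Fcer2a (0.316). Fcer2a encodes CD23, a low-affinity IgE receptor of mature B cells. It was at 348 and 539 counts in KO A and KO B and at 645 and 380 in WT 1 and WT 2, the same order of libraries as Ighd. With 4 libraries many genes share an order, and these distances carry no test.

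Of the 8 germinal centre genes listed, 6 were in the table and 4 were tested, and 0 passed in limma (2 with an unadjusted p under 0.05). Over all 11864 genes tested 6.93% passed, and 2928 had an unadjusted p under 0.05.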
